A study of Mus musculus with 3 samples.

Results

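Type 1 conventional dendritic cells (cDC1) were chosen by measured values, a rule on single-cell counts of unique molecular identifiers (UMIs, the RNA molecules counted), among immune cells from the abdominal aorta of mice, below the renal arteries. A kept cell had 200 or more genes with a UMI and no more than 10% mitochondrial UMIs. A gated cell also had at least 1 UMI of Xcr1 and Clec9a together, at least 100 UMIs of Cd74, H2-Aa and H2-Ab1 together per 10000, at most 1 UMI of C1qa, C1qb and C1qc together, and 0 UMIs of Cd79a, Cd3e and Fscn1. The rule took 143 of 9750 kept cells, with 111 in AAA_14, 27 in AAA_7 and 5 in Sham. Each group was 1 library of pooled wild-type aortas, and CD45-positive cells, the immune cells, were enriched from each pool with magnetic beads. The treatment label gave elastase, an enzyme that breaks down elastic fibres, for AAA_14 and phosphate-buffered saline for Sham. The library titled AAA_7 carried an aneurysm title but the saline label, so its treatment is not settled here. The labels gave 20 aneurysm and 50 control aortas per pool and no separate number for AAA_7. The age of the mice and the unit of the number in the titles were not used here. With 1 library per group, differences between libraries have no test, and the 95% intervals below cover counting error only, not differences between cells, pools or mice.

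cDC1 are the dendritic cells that take up dead cells and pass pieces of their proteins to CD8 T cells on MHC class I molecules, a route called cross-presentation. Their development depends on the transcription factors Irf8, Batf3, Id2 and Nfil3, and they carry the chemokine receptor Xcr1 and the dead-cell receptor Clec9a. In inflamed tissue they are a known source of IL-12 and of the chemokines Cxcl9 and Cxcl10, which attract T cells that bear Cxcr3.

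Of 228 AAA_14, 49 AAA_7 and 13 Sham cells with an Xcr1 or Clec9a UMI, 190, 37 and 10 had enough MHC class II UMIs, and the limits on C1q, Cd79a, Cd3e and Fscn1 then left 111, 27 and 5. These limits chose the cells, so the genes they use are described and not tested. Xcr1 had 301.7 and 221.4 CPM in gated cells of AAA_14 and AAA_7 (CPM, UMIs of a gene per 1000000 UMIs, summed over the cells), against 8.15 and 1.26 CPM in all other kept cells. The lowest MHC class II level inside the rule was 110.3 per 10000 for AAA_14, 125.3 for AAA_7 and 109.5 for Sham, and the highest level just outside it was 99.3, 94.6 and 69.5. Only 1 UMI of Xcr1 or Clec9a was found in 25 AAA_14, 8 AAA_7 and 3 Sham cells of the gate, while 208, 229 and 24 cells met every other condition and had none. The libraries differed in depth and quality. Gated cells had a median depth of 16324 UMIs for AAA_14, 9721 for AAA_7 and 8603 for Sham, with a median of 4.19%, 0.849% and 7.10% mitochondrial UMIs. Over all barcodes, the mitochondrial limit removed 47.2% in AAA_14, 7.52% in AAA_7 and 66.9% in Sham. Between 5 and 12 barcodes were shared by a pair of libraries, and no gated cell had a shared barcode.

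The gate did not hold 1 kind of cell. In 20 of 111 AAA_14 cells, 3 of 27 AAA_7 cells and 5 of 5 Sham cells, 8 genes known from plasmacytoid dendritic cells (Siglech, Ccr9, Ly6d, Klk1, Cox6a2, Pacsin1, Cd209d and Tcf4) reached 10 UMIs per 10000, a limit set after the values were seen. The limit fell in a gap: the lowest cell above it had 23.5 per 10000 and the highest below it 4.35. None of these 28 cells had an Xcr1 UMI, so each had entered through Clec9a. Siglech, a surface lectin of plasmacytoid cells, had a UMI in 19 of the 20 such cells of AAA_14 and in 5 of the other 91. Batf3, Tlr3 and Itgae had none in any of the 28. Most of the remaining cells carried the genes of the label, but not all. Among 91 in AAA_14 and 24 in AAA_7, Wdfy4 was found in 98.9% and 95.8%, Irf8 in 95.6% and 91.7%, Naaa in 98.9% and 95.8%, and both Xcr1 and Clec9a in 66 and 16 cells. An AAA_7 cell of 9476 UMIs had 1 Xcr1 UMI and 0 UMIs of Irf8, Wdfy4, Batf3 and Naaa, so leaving out the 28 cells does not leave a uniform set. The 5 Sham cells went against the label in Xcr1, Wdfy4, Batf3, Id2 and Naaa, each with 0 UMIs. Irf8, another gene of the label, had 0, 18, 19, 24 and 18 UMIs in them. These 5 are called gated Sham cells. Results that rest on the 28 cells are given with and without them.

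**Figure D1:**
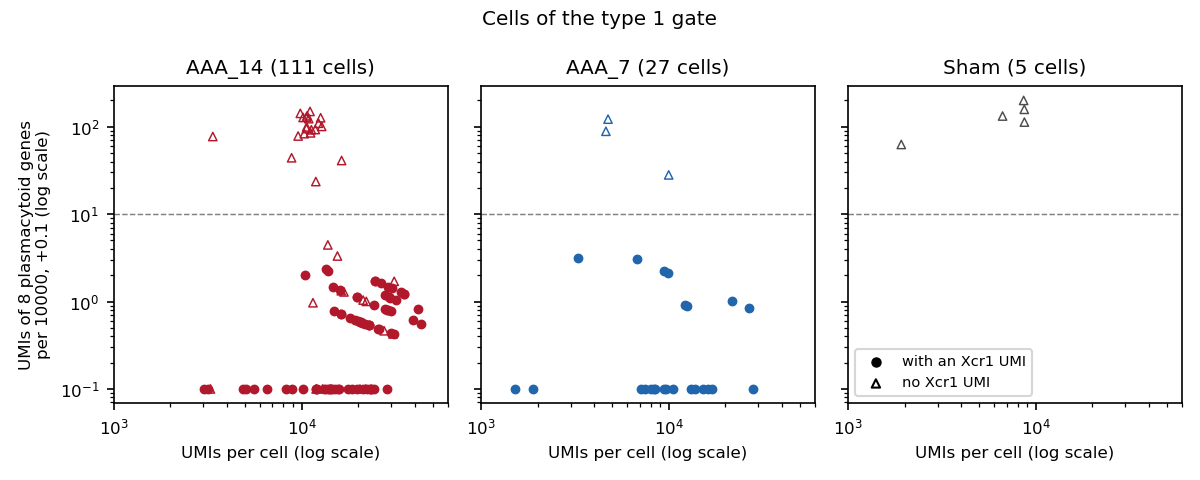
Each point is a gated cell, placed by its UMIs (horizontal, log scale) and its UMIs of 8 plasmacytoid genes per 10000 (vertical, log scale, 0.1 added), in AAA_14, AAA_7 and Sham; the dashed line is the limit of 10. Cells with an Xcr1 UMI all lie below the line, and all 5 Sham cells lie above it.

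Gated cells made up 2.10% of kept cells in AAA_14 (95% interval 1.73% to 2.52%), 0.836% in AAA_7 (0.552% to 1.21%) and 0.405% in Sham (0.132% to 0.942%, exact Clopper-Pearson intervals). Without the cells high in plasmacytoid genes the shares were 1.72% in AAA_14 and 0.743% in AAA_7, with 0 of 1235 cells in Sham, which allows a share of up to 0.243%. The gate needs a UMI of a sparse gene, and kept cells of AAA_14 held more UMIs (median 6967.5) than those of AAA_7 (2581) and Sham (3659). With each cell thinned to 1000 UMIs first, 53 cells (1.02%) remained in AAA_14, 13 (0.437%) in AAA_7 and 1 (0.0803%) in Sham. The order of the libraries was the same, and the share in AAA_14 was also above that in AAA_7 at a mitochondrial limit of 5%, where it was 5.05% against 0.858%. That limit cut the kept cells of AAA_14 from 5286 to 1583 and its gated cells from 111 to 80. In AAA_7 it cut kept cells from 3229 to 3029 and gated cells from 27 to 26. Type 2 conventional dendritic cells (cDC2), gated in the same way but with 0 UMIs of Xcr1 and Clec9a and at least 1 of Cd209a, were 1.55% of AAA_14, 1.46% of AAA_7 and 0.729% of Sham. At the 5% limit cDC2 were 3.10% of AAA_14 and 1.52% of AAA_7. A higher share can come from more such cells or from fewer other cells, and these cannot be told apart.

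Genes that define cDC1 were strongly present beyond the genes used to pick the cells. Levels are CPM over all cells of a gate in a library. Irf8 (chr8:120736358-120756694, plus strand, GRCm38), the factor without which the lineage does not form, had 1926 CPM in cDC1 of AAA_14 and 1781 CPM in cDC1 of AAA_7, against 270.9 and 236.9 CPM in all other kept cells. Wdfy4, needed for cross-presentation of cell-bound antigens, had 661.4 and 476.3 CPM in cDC1 of AAA_14 and AAA_7, against 67.7 and 42.3 CPM in other cells. Naaa, a lysosomal lipid hydrolase, had 1731 and 1359 CPM in cDC1 of AAA_14 and AAA_7, against 127.4 and 98.1 CPM in other cells. Batf3 had 221.3 and 248.2 CPM in cDC1, against 28.6 and 19.2 CPM in other cells. Tlr3, the sensor of double-stranded RNA, had 156.9 and 134.2 CPM in cDC1, against 8.93 and 8.87 CPM in other cells. The sorting nexin gene Snx22 had 103.8 and 187.8 CPM in cDC1, against 2.84 and 1.41 CPM in other cells. Cadm1, an adhesion molecule, had 170.6 CPM in cDC1 of AAA_14 and 83.9 CPM in cDC1 of AAA_7, and Itgae, the integrin chain CD103, had 122.8 and 171.1 CPM. Of 31 identity genes, 27 were at least 2-fold higher in cDC1 than in all other kept cells in both libraries. The exceptions were Nfil3, Cd36, Sult1a1 and Cd8a. Of the 2217 genes with at least 50 CPM in both libraries, 9.97% were at least 2-fold higher. The identity genes had no such minimum, and 22 of the 31 reached it.

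Among the 20 genes with the highest mean ratio over the other cells were further members of the lineage's known set, such as the transcription factor Mycl, and genes outside the fixed list. Sept3, a septin, had 212.0 CPM in cDC1 of AAA_14 and 214.7 CPM in cDC1 of AAA_7, against 7.74 and 5.34 CPM in other cells. Zfp366, which encodes the dendritic cell factor DC-SCRIPT, had 70.7 and 77.2 CPM in cDC1, against 6.33 and 6.36 CPM in other cells. The receptor for the growth factor Flt3 ligand, Flt3, had 250.5 and 248.2 CPM in cDC1, against 24.9 and 20.8 CPM in other cells. Cst3, the protease inhibitor cystatin C, had 17421 CPM in cDC1 of AAA_14 and 17369 CPM in cDC1 of AAA_7. The median log2 ratio of AAA_14 over AAA_7 was 0.21 over the 31 genes and 0.11 over all 9208 genes with at least 10 UMIs. Of the 31, 2 (Cd8a and Qpct) were at least 2-fold higher and none lower, beside 14.1% and 5.54% of all these genes. Id2 was lower, with 1118 CPM in cDC1 of AAA_14 and 1667 CPM in cDC1 of AAA_7 (log2 ratio -0.58, interval -0.72 to -0.43).

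**Figure D2:**
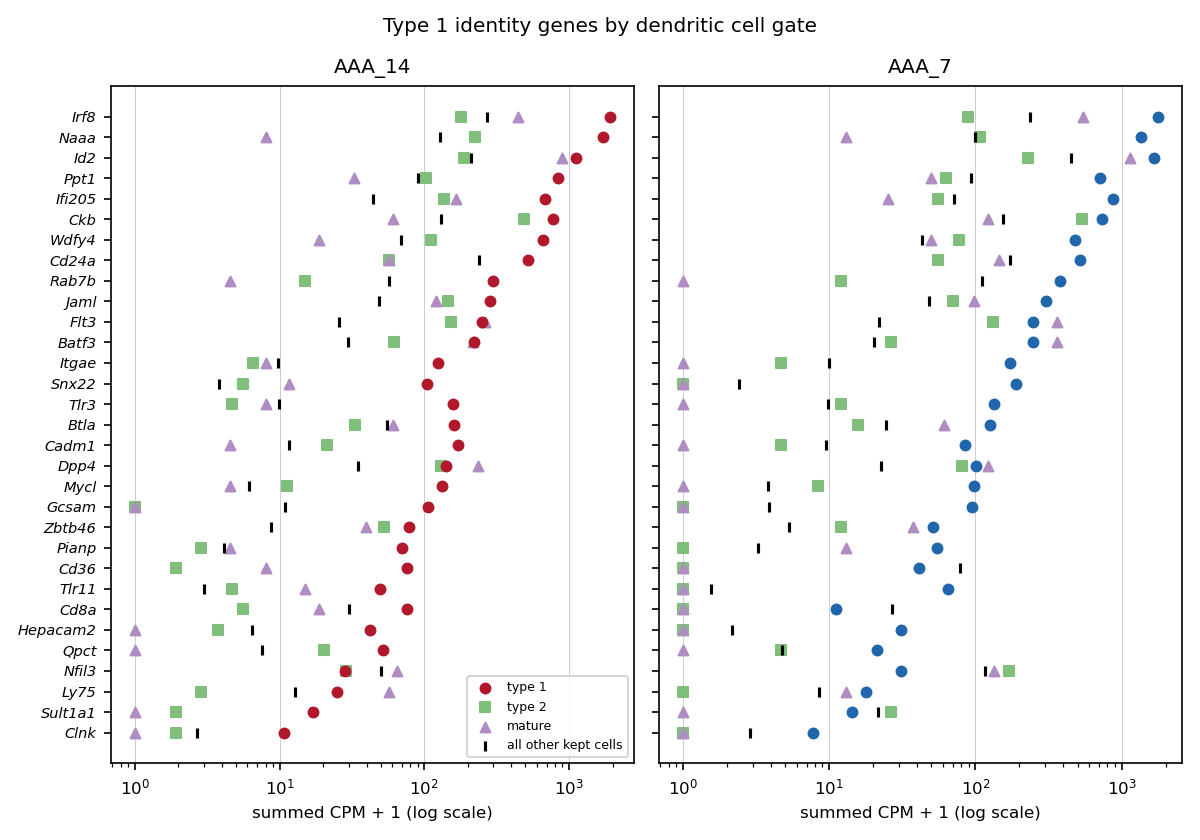
Summed CPM plus 1 (log scale) of 31 identity genes in AAA_14 and AAA_7, for cDC1 (circles), cDC2 (squares), mature dendritic cells (triangles) and all other kept cells (bars). Naaa and Irf8 lie well to the right of every other group in both libraries, while Flt3 and Batf3 reach similar levels in mature cells.

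The sequences just upstream of Irf8 and Batf3 are shown because both genes set cDC1 identity and both hold the motif TTCNNNGAA, the core letters known to be bound by STAT factors. They are the 250 bases before the RefSeq start of each gene on GRCm38.p6, written 5′ to 3′ on the gene's strand, with each match in capitals. Irf8 lies on the plus strand at chr8:120736108-120736357 and has 2 matches, beginning 171 and 153 bases before the start. Batf3 lies on the plus strand at chr1:191098164-191098413 and has 1 match, beginning 239 bases before the start.
Irf8: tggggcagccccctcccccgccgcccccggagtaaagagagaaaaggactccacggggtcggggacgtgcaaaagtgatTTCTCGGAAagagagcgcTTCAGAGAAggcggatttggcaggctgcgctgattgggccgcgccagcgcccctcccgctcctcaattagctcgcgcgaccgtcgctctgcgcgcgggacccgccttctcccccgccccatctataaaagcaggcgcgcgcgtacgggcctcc
Batf3: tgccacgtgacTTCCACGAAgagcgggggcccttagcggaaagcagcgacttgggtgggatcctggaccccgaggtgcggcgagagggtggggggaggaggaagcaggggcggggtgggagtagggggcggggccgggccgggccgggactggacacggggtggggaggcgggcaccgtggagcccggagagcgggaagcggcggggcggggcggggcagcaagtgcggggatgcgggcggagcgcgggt
The motif reads the same on both strands and was found in 8.13% of 27025 promoters of this length, and in 3 of the 26 identity genes with a promoter in the table (Batf3, Clnk and Irf8). A match is a description of letters and not a bound site.

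cDC1 differed from cDC2 of the same libraries in 581 of 6410 genes tested: 241 (3.76%) were higher and 340 (5.30%) lower in cDC1 at an adjusted p under 0.05 (edgeR quasi-likelihood test, Benjamini-Hochberg over all genes tested). The test set summed counts of 111 and 27 cDC1 against 82 and 47 cDC2 in AAA_14 and AAA_7, with the library as a term, which leaves 1 residual degree of freedom. Sham had too few cells, and genes used by either gate were left out. Of 29 identity genes tested, 23 were higher and none lower, with a median log2 fold change of 3.24 against 0.01 over all genes. Of 16 tested genes of the cDC2 list, 13 were lower and none higher, with a median of -2.52. Both lists hold known markers of the types that the gates were built to separate, so their direction is no independent evidence.

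Among single genes, Irf8 had 1926 and 1781 CPM in cDC1 of AAA_14 and AAA_7, against 178.5 and 87.9 CPM in cDC2 (log2 fold change 3.79 ± 0.20 SE, adjusted p = 2.07e-05, edgeR). Without the cells high in plasmacytoid genes, which themselves carry Irf8, its log2 fold change was 5.51. Cst3 had 17421 and 17369 CPM in cDC1 of AAA_14 and AAA_7, against 3018 and 2372 CPM in cDC2 (2.71 ± 0.08, adjusted p = 3.74e-07, edgeR). Id2, which restrains the plasmacytoid fate, had 1118 and 1667 CPM in cDC1, against 185.9 and 227.0 CPM in cDC2 (2.73 ± 0.15). These 3 genes were higher in cDC1 than in cDC2 in both libraries, which the ranking that named them required.

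Of 20 tested genes of the proteasome and lysosome list 1, Cst3, was higher in cDC1 than in cDC2 and 7 were lower (3.76% and 5.30% over all genes), with a median of -0.37. Without the cells high in plasmacytoid genes 9 were lower. The lower ones included the protease Ctsa (-2.00 ± 0.23) and the lysosomal membrane proteins Lamp1 (-1.13 ± 0.24) and Lamp2 (-1.36 ± 0.27). Lysosomal and endosomal genes outside that list were among the higher ones named by rank or from the identity list. Naaa had 1731 and 1359 CPM in cDC1 of AAA_14 and AAA_7, against 224.7 and 106.2 CPM in cDC2 (log2 fold change 3.25 ± 0.19). Ppt1, a lysosomal thioesterase, had 844.6 and 711.1 CPM in cDC1, against 101.7 and 62.2 CPM in cDC2 (3.24 ± 0.20). Rab7b, a small GTPase of late endosomes, had 295.4 and 379.1 CPM in cDC1, against 13.9 and 11.0 CPM in cDC2 (4.61 ± 0.30). Psap, the precursor of saposins, was higher by 1.90 ± 0.11 and Mpeg1, the pore-forming perforin-2, by 2.04 ± 0.15. Further genes higher in cDC1 were Cd24a (3.24 ± 0.22), the antioxidant Txn1 (2.65 ± 0.16), Wdfy4 (2.61 ± 0.20) and Tmsb4x (0.86 ± 0.05), which binds actin monomers. Snx22 (5.05 ± 0.51), Tlr3 (4.81 ± 0.45) and Itgae (4.70 ± 0.40) had the steeper differences, each resting on 7 or fewer UMIs in all cDC2. Flt3 was higher by 0.81 ± 0.22 (adjusted p = 0.0484, edgeR) and Zbtb46, a factor shared by conventional dendritic cells, did not pass (0.91 ± 0.38, adjusted p = 0.204, edgeR).

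The genes with the smallest p among those lower in cDC1 included Wfdc17 and Fcer1g. Wfdc17, a small secreted protein, had 252.0 and 352.2 CPM in cDC1 of AAA_14 and AAA_7, against 1399 and 2090 CPM in cDC2 (-2.50 ± 0.13, adjusted p = 2.07e-05, edgeR). Fcer1g, the signalling chain of Fc receptors, had 443.0 and 620.6 CPM in cDC1, against 1945 and 2449 CPM in cDC2 (-2.05 ± 0.12). The calcium-binding genes S100a6 (-1.99 ± 0.11) and S100a4 (-3.59 ± 0.30) were lower. Ccl9, a chemokine, had 10.2 and 13.4 CPM in cDC1, against 351.4 and 329.5 CPM in cDC2 (-4.94 ± 0.30). The ion channel genes Tmem176b (-3.68 ± 0.23) and Tmem176a (-3.22 ± 0.28) and the lectin genes Clec10a (-3.38 ± 0.26), Clec4a3 (-3.98 ± 0.32) and Clec4a1 (-3.80 ± 0.32) were lower, as were Ms4a6d (-4.54 ± 0.36) and the T cell costimulator Tnfsf9 (-2.47 ± 0.20). Sirpa, a classical cDC2 surface marker, had 37.5 and 53.7 CPM in cDC1, against 306.1 and 325.9 CPM in cDC2 (-2.85 ± 0.25). Irf4, the factor tied to cDC2, missed the threshold (-1.89 ± 0.51, adjusted p = 0.0517, edgeR) and passed without the cells high in plasmacytoid genes (-3.01 ± 0.69, adjusted p = 0.0309, edgeR).

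By function, the MHC class I and cross-presentation list had 7 of 26 genes higher and 2 lower in cDC1 than in cDC2, beside 3.76% and 5.30% over all genes tested. The higher ones were the immunoproteasome subunits Psmb8 (1.04 ± 0.15) and Psmb9 (1.72 ± 0.17), the proteasome activators Psme1 (1.31 ± 0.17) and Psme2 (1.04 ± 0.21), the peptide transporter Tap2 (1.19 ± 0.27), Rab43 (1.48 ± 0.21), a GTPase needed for cross-presentation by cDC1, and the chaperone Pdia3 (0.82 ± 0.21). The class I heavy chain H2-K1 (-0.48 ± 0.12) and Cybb, the oxidase subunit (-2.13 ± 0.23), were lower. Of 12 genes of the MHC class II list outside the rule, none was higher and 4 were lower: Ctss, Ctsh, Lgmn and Ifi30, which are all enzymes of endosomal protein processing. Lgmn did not pass without the cells high in plasmacytoid genes (adjusted p = 0.0548, edgeR). In the cell cycle list 9 of 26 genes were higher and none lower, among them Top2a (115.0 and 53.7 CPM in cDC1, against 37.0 and 7.32 CPM in cDC2, 1.85 ± 0.35) and Mki67 (1.43 ± 0.35). Without the cells high in plasmacytoid genes 13 were higher. With cells holding a UMI of Mki67 or Top2a left out, the test called 150 genes higher and 211 lower over all genes. With the cells high in plasmacytoid genes left out as well, it called 217 higher and 303 lower of 5344.

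Several inflammatory genes were lower in cDC1 than in cDC2, where 3.76% of all genes were higher and 5.30% lower. In the cytokine and chemokine list 9 of 19 were lower, including Il1b (325.6 and 1013 CPM in cDC1, against 636.2 and 4987 CPM in cDC2, -1.61 ± 0.26), Ccl4 (-2.31 ± 0.23), Ccl5 (-4.10 ± 0.52) and Cxcl10 (-2.27 ± 0.53). In that list Il18 alone was higher (1.52 ± 0.40, adjusted p = 0.0478, edgeR), and Cxcl9 did not pass (3.26 ± 1.06, adjusted p = 0.101, edgeR). Cxcl10 did not pass without the cells high in plasmacytoid genes (adjusted p = 0.0517, edgeR). In the type I interferon-stimulated list 6 of 21 were lower and none higher: Ifit1, Ifit3, Rtp4, Oasl2, Rsad2 and Ifitm3. Among trafficking genes the chemokine receptor Cxcr3 (3.92 ± 0.60) and the integrin chain Itgal (1.71 ± 0.29) were higher, while Ccr1 (-2.55 ± 0.40), Cxcr4 (-1.48 ± 0.37) and Cx3cr1 (-4.89 ± 0.59) were lower. Among transcription factors Ahr was higher (1.59 ± 0.33), and Zeb2 (-2.82 ± 0.37), Cebpb (-2.26 ± 0.30), Bach2, Runx3 and Klf4 were lower. Without the cells high in plasmacytoid genes, 238 (3.97%) of 6002 genes were higher and 334 (5.56%) lower, and these held 222 of the 241 higher and 298 of the 340 lower genes. Without a library term the test called 111 higher and 118 lower, and DESeq2 called 91 and 149.

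Against mature dendritic cells, gated by Ccr7 and Fscn1, cDC1 had 497 of 3985 genes higher (12.5%) and 600 lower (15.1%, edgeR, 21 and 11 mature cells in AAA_14 and AAA_7). The mature gate set no limit on Xcr1 or Clec9a UMIs. With the cells high in plasmacytoid genes left out, 596 (15.5%) of 3838 genes were higher and 577 (15%) lower, and these held 463 of the 497 and 551 of the 600. DESeq2 called 116 higher and 245 lower. Of 21 genes of the proteasome and lysosome list 6 were higher and 4 lower in cDC1 than in mature cells (12.5% and 15.1% over all genes; 5 and 4 without the cells high in plasmacytoid genes), with a median of 0.36, the lower ones including Lamp1 (-3.03 ± 0.33) and Cd63 (-6.63 ± 0.42). Naaa had 1731 and 1359 CPM in cDC1 of AAA_14 and AAA_7, against 7.04 and 12.1 CPM in mature cells, where it had 3 UMIs in all (log2 fold change 7.57 ± 0.50, adjusted p = 5.41e-47, edgeR). Psap (3.05 ± 0.26), Mpeg1 (5.33 ± 0.44), Ppt1 (4.43 ± 0.42), Plbd1, a phospholipase (4.17 ± 0.38), and Gm2a, a lysosomal lipid activator (3.37 ± 0.36), were higher too, with Wdfy4 (4.49 ± 0.44), Plac8 (3.55 ± 0.35), Ckb (3.23 ± 0.37) and Alox5ap (3.32 ± 0.37), which feeds leukotriene synthesis. Rab7b and BC028528 were higher as well, against 1 and 4 UMIs in all mature cells.

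Of 25 identity genes tested, 19 were higher in cDC1 and 1, Nfil3, was lower. These are known markers of the type that the cDC1 gate was built to pick, so their direction is no independent evidence. Irf8 was higher by 1.94 ± 0.29, with 443.6 and 544.1 CPM in mature cells. Batf3 had 221.3 and 248.2 CPM in cDC1, against 214.7 and 362.8 CPM in mature cells, and the difference did not pass (-0.20 ± 0.30, adjusted p = 0.705, edgeR). Id2 had 1118 and 1667 CPM in cDC1, against 887.1 and 1137 CPM in mature cells, and did not pass either (0.46 ± 0.28, adjusted p = 0.226, edgeR). It passed when the cells high in plasmacytoid genes were left out (0.65 ± 0.23, adjusted p = 0.0190, edgeR). Flt3 (-0.25 ± 0.30) and Zbtb46 (0.86 ± 0.55) did not pass.

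Genes of the mature state were lower in cDC1, with 18 of 20 members of that list called, beside 15.1% of all genes. The list holds known markers of the state that the gates separate by Fscn1 and Ccr7, so its direction is no independent evidence. Fabp5, a fatty acid binding protein, had 9.26 CPM in cDC1 of AAA_14 and none in AAA_7, against 3172 and 5260 CPM in mature cells (-9.02 ± 0.38, adjusted p = 6.95e-116, edgeR). Ccl5, a T cell attractant, had 6.34 and 0 CPM in cDC1, against 2538 and 4087 CPM in mature cells (-9.15 ± 0.40). Il4i1, an amino acid oxidase (-7.85 ± 0.49), the signalling inhibitor Socs2 (-7.01 ± 0.43), the calcium channel subunit Cacnb3 (-5.53 ± 0.40) and the NF-kB subunit Relb (-4.25 ± 0.35) were lower. Cd63, Tmem123, S100a4, Tmem176a, Zmynd15, Anxa3 and H2-Eb2 were among the 12 lower genes with the smallest p. In the MHC class I list 9 of 26 were lower, beside 15.1% of all genes, among them H2-K1 (-1.61 ± 0.24) and B2m (-1.37 ± 0.22), and 4 were higher, a share close to the 12.5% of all genes: the chaperones Calr (2.11 ± 0.35), Canx (0.96 ± 0.34) and Pdia3 (2.33 ± 0.36), and Rab43. In the MHC class II list 4 of 12 were higher and 3 lower, with a median of -0.14, and 5 were lower without the cells high in plasmacytoid genes. H2-DMa and H2-DMb1, which load class II peptides, H2-Ob, which restrains that loading, and March1 (4.34 ± 0.76), the ligase that turns surface class II over, were higher. H2-DMb2 (-1.85 ± 0.31), Ifi30 (-1.57 ± 0.26) and Ctsh (-2.16 ± 0.32) were lower.

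**Figure D3:**
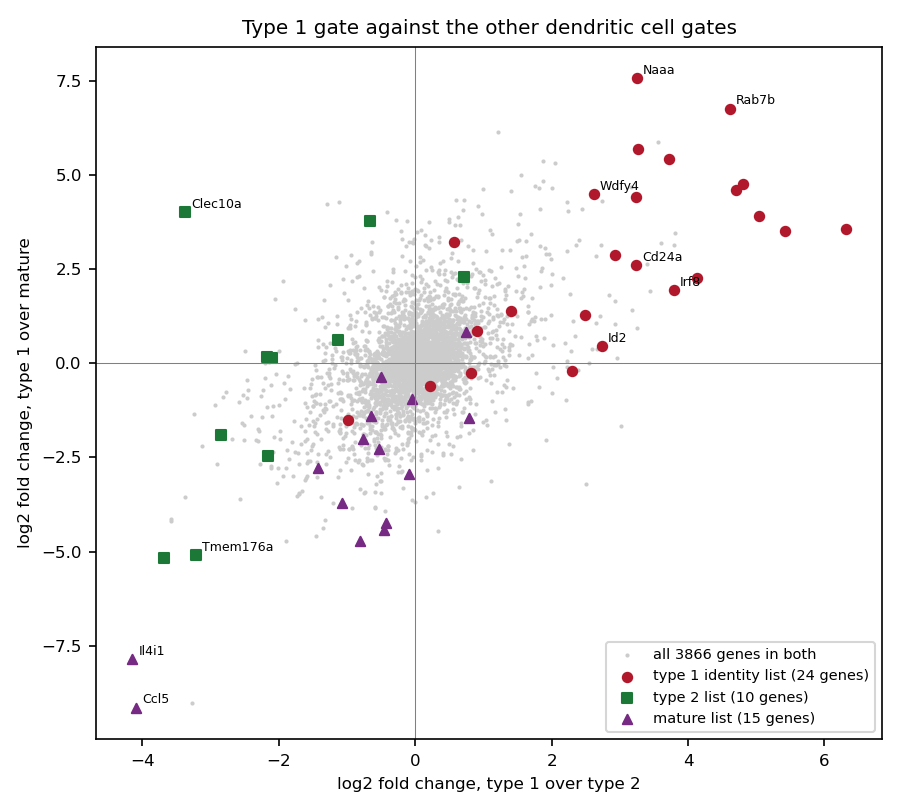
Log2 fold change of cDC1 over cDC2 (horizontal) and over mature dendritic cells (vertical) for the 3866 genes tested in both and with a UMI in both other gates, with 24 identity genes (circles), 10 cDC2 genes (squares) and 15 mature genes (triangles); both axes share the cDC1 counts. Rab7b and Naaa lie at the upper right, Ccl5 and Il4i1 at the lower left.

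Between the libraries, 919 of 7687 genes with at least 20 UMIs (12%) were at least 2-fold higher in AAA_14 cDC1 than in AAA_7 cDC1 and 263 (3.42%) at least 2-fold lower. When the 95% interval also had to lie on that side of 0, 359 (4.67%) and 139 (1.81%) remained. These counts describe 1 library against another. The cells held 2051834 UMIs in AAA_14 and 298109 in AAA_7, and higher genes made up 77.8% of calls with 0.5 counts added but 4.63% with 5 counts added. Cells thinned to 1000 UMIs gave 17 higher and 36 lower.

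Several genes of the response to interferon gamma were higher in AAA_14 cDC1, and several of the type I interferon response were lower. Of 18 measured members of the interferon gamma list, 9 were at least 2-fold higher and none lower (14.1% of all 9208 genes with at least 10 UMIs were higher and 5.54% lower), with a median log2 ratio of 0.79. With the 5 members that had 0 UMIs in AAA_7 set to their lower bound, the median was 0.39 and 5 were at least 2-fold higher. Of 21 measured members of the type I list, 2 were at least 2-fold higher and 7 lower, with a median of -0.30. When the cells high in plasmacytoid genes were left out, 10 of 17 interferon gamma members were at least 2-fold higher and none lower (13.5% and 5.72% of 8794 genes), with a median of 1.12. With 5 counts added the median of the interferon gamma list was -0.12, where that of all genes was -0.53.

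Cxcl9 (chr5:92321347-92328079, minus strand), the chemokine for Cxcr3-bearing T cells, had 771 UMIs in 25 of 111 AAA_14 cells and 3 UMIs in 2 of 27 AAA_7 cells (375.8 against 10.1 CPM, log2 ratio 5.00, interval 3.67 to 7.50), with none in gated Sham cells. The UMIs were uneven: 4 AAA_14 cells held 625 of them (81.1%). Of these 4, a cell of 31157 UMIs held 136 Cxcl9 UMIs. That cell had 0 UMIs of Xcr1 and Naaa, 1 of Clec9a, and 140 of Ccr7, a gene of mature dendritic cells. Without the cell with most Cxcl9 UMIs, the ratio was 4.53, and without the cells high in plasmacytoid genes 5.07. Thinned to 2000 UMIs per cell, 16.2% of 111 AAA_14 cells and 4.0% of 25 AAA_7 cells had a Cxcl9 UMI, against 1.6% and 1.5% of other kept cells. In cDC2 the ratio had the opposite sign (-1.77, interval -2.98 to -0.52), and in all other kept cells it was 0.16.

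Other members of the list rested on fewer counts. Serpina3g, a protease inhibitor, had 164 UMIs in AAA_14 and 1 in AAA_7 (3.99, interval 2.08 to 9.89). Gbp2, a guanylate-binding protein that attacks pathogen vacuoles, had 67 UMIs in 14 AAA_14 cells and 0 in AAA_7, at least 3.25-fold higher against a floor of 3 counts. The GTPases Igtp and Iigp1 had 35 and 29 UMIs in AAA_14 and 0 in AAA_7, at least 1.70-fold and 1.40-fold higher. Nlrc5, which switches on class I genes, had 99 UMIs in AAA_14 and 4 in AAA_7 (1.68, interval 0.44 to 3.75). Cxcl10 had 114 and 6 UMIs (1.36, interval 0.30 to 2.94), of which 1 AAA_14 cell held 38.6%; without it the ratio was 0.66. Irf1, a transcription factor of the pathway, had a ratio close to 0 (0.05, interval -0.64 to 0.88).

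Isg15 (chr4:156199424-156200818, minus strand), a ubiquitin-like modifier, had 197 UMIs in 34 AAA_14 cells and 144 UMIs in 13 AAA_7 cells (96.0 against 483.0 CPM, -2.33, interval -2.65 to -2.01). In AAA_14, the cell of 31157 UMIs held 40 of the Isg15 UMIs. In AAA_7, single cells held 36, 34 and 31 of the Isg15 UMIs, and these cells had 39, 0 and 0 Irf8 UMIs. Isg15 was lower in cDC2 (-1.43) and all other kept cells (-1.86) of AAA_14 as well. Ifi27l2a had 453.7 CPM in AAA_14 and 1422 CPM in AAA_7 (-1.65, interval -1.82 to -1.48), with -0.20 in cDC2. Irf7, a master regulator of type I interferon genes, had 214.9 CPM in AAA_14 and 214.7 CPM in AAA_7 (-0.01). Slfn5 (0.62, interval 0.33 to 0.95) and Oasl1 (1.88, interval 0.50 to 4.40, 3 UMIs in AAA_7) were higher.

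Promoters of Gbp2 and Isg15 are shown as a member of each list, since the 2 genes differ in opposite directions while both hold the letters GAAA, any 2 bases, GAAA, the core of the element bound by interferon-activated factors. The 250 bases before the RefSeq start on GRCm38.p6 are written 5′ to 3′ on the gene's strand, with the match, on either strand, in capitals. Gbp2 is on the plus strand at chr3:142620413-142620662, with its match on the opposite strand beginning 59 bases before the start. Isg15 is on the minus strand at chr4:156200819-156201068, with 3 overlapping matches that begin 78, 72 and 66 bases before the start.
Gbp2: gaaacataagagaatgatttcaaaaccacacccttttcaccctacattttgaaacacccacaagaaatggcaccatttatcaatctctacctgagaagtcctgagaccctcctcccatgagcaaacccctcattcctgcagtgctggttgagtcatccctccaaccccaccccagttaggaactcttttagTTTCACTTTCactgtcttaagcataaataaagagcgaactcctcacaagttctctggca
Isg15: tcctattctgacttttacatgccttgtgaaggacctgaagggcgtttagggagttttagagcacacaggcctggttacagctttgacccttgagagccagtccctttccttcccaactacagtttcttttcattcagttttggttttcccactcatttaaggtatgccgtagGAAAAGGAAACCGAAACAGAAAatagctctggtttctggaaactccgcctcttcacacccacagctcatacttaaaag
These letters were present on either strand in 10 of 14 interferon gamma genes and 9 of 18 type I genes with a promoter in the table, beside 3.46% of 27025 promoters. TTCNNNGAA was present in 7 of the 14 and 3 of the 18, beside 8.13%.

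**Figure D4:**
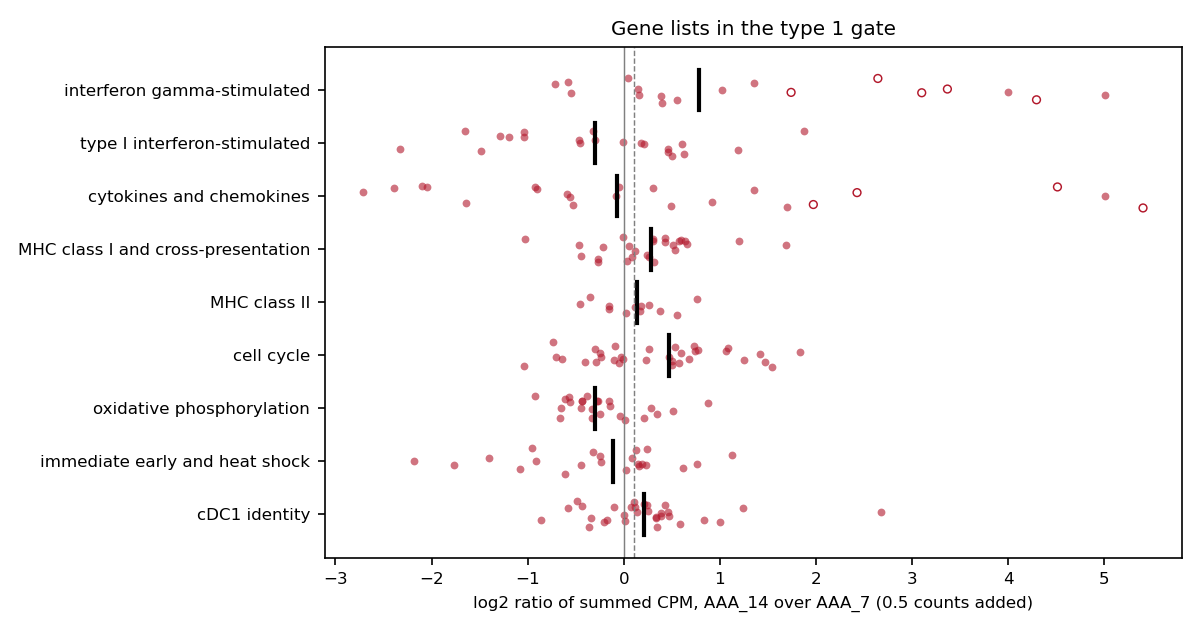
Log2 ratio of summed CPM, AAA_14 over AAA_7, in cDC1 for the measured genes of 9 lists (points, open where a library had 0 UMIs), with each list's median (black bar), 0 (solid line) and the median of all genes (dashed line, 0.11). The interferon gamma list has its median at 0.79, the type I list at -0.30.

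Cytokine genes differed in both directions and often through few cells. Il1b had 668 UMIs in 57 AAA_14 cells and 302 UMIs in 19 AAA_7 cells (325.6 against 1013 CPM, -1.64, interval -1.84 to -1.44). A single AAA_7 cell held 147 (48.7%) of its UMIs there. It was the cell of 9476 UMIs with 0 UMIs of Irf8, Wdfy4, Batf3 and Naaa. Without that cell the Il1b ratio was -0.68, and with at least 2 Xcr1 or Clec9a UMIs required it was 0.03. AAA_7 cells of 26874 and 9996 UMIs, with 29 and 32 Il1b UMIs, also had 0 Irf8 UMIs. The same held for AAA_14 cells of 27536 and 21980 UMIs, with 147 and 58 Il1b UMIs. Ccl3 (-2.71) and Tnfsf9 (-2.10; -0.84 without the cells high in plasmacytoid genes and 1.33 with at least 2 Xcr1 or Clec9a UMIs) were lower too, with 73.0% and 59.6% of the AAA_7 UMIs in 1 cell, and Tnf was lower on 17 and 10 UMIs (-2.05, interval -3.23 to -0.73). The inhibitor of NF-kB Nfkbia (-1.08) and the survival gene Ier3 (-2.18), both induced by that factor, were lower. All 6 of these genes also had ratios below 0 in cDC2 (-2.97 to -0.62) and in all other kept cells (-2.74 to -1.63).

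Il12b, the shared subunit of IL-12 and IL-23, had 145 UMIs in 4 AAA_14 cells and 0 in AAA_7, at least 7.02-fold higher. The 2 AAA_14 cells with most Ccr7 held 140 of them, together with 163 of 186 Ccr7 UMIs, 71 of 78 Ccl22 UMIs and 31 of 33 Ccl17 UMIs, which are genes of mature dendritic cells. These 2 cells had 0 Xcr1 and 2 Clec9a UMIs. The deeper of them, of 31157 UMIs, also held 136 Cxcl9 and 42 Dnase1l3 UMIs. The Ccr7 ratio (2.06) became 0.06 without the cell with most of its UMIs.

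The MHC class I and cross-presentation list had a median of 0.28, with 2 of 26 genes at least 2-fold higher, below the 14.1% of all genes (Nlrc5 and Cybb, of which Cybb had a ratio of 0.33 without the cells high in plasmacytoid genes) and 1 lower, the chaperone Pdia3 (234.4 against 476.3 CPM, -1.03). H2-K1 had 1370 CPM in AAA_14 and 1100 CPM in AAA_7 (0.31), B2m 2509 and 2127 CPM (0.24) and Tap1 343.6 and 285.1 CPM (0.26). Of 12 MHC class II genes outside the rule none reached 2-fold, with a median of 0.14. Ciita, the regulator of that locus, had 282.7 and 191.2 CPM (0.55, interval 0.17 to 0.98).

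Genes of migration differed in both directions. The integrin chain Itga4 had 169.1 CPM in AAA_14 and 67.1 CPM in AAA_7 (1.30, interval 0.68 to 2.06), and Cxcr3 had 53.6 and 20.1 CPM (1.30, interval 0.25 to 2.89). Cxcr4 (-1.15) and Gpr183 (-1.79), a receptor for oxysterols, were lower, with 29.2% and 55.9% of their AAA_7 UMIs in 1 cell. Without that cell the 2 ratios were -0.66 and -0.64. Of the whole list, 5 of 22 genes were at least 2-fold higher and 4 lower, beside 14.1% and 5.54% over all genes, with a median of 0.15.

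A UMI of Mki67 or Top2a, genes of dividing cells, was found in 25 of 91 AAA_14 cells outside the plasmacytoid-gene set (27.5%, interval 18.6% to 37.8%) and 3 of 24 in AAA_7 (12.5%, 2.66% to 32.4%). Depth differed between these cells, with medians of 20101 and 9833 UMIs. Thinned to 2000 UMIs, Mki67 was found in 6.6% of 91 and 9.1% of 22 cells, and Top2a in 7.7% and 9.1%, so no difference was detectable at equal depth. Mki67 had a ratio of 0.26 (interval -0.36 to 1.02), Top2a of 1.06 (0.37 to 1.93) and Birc5, a mitotic survival gene, of 1.83 (0.70 to 3.61, 5 UMIs in AAA_7). The cell cycle list had 7 of 33 genes at least 2-fold higher and 1 lower (14.1% and 5.54% over all genes), with a median of 0.47 that was -0.25 with 5 counts added.

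Further genes were named by rank, as those with intervals farthest from 0. The endonuclease Dnase1l3, which clears DNA from dying cells, had 221 UMIs in 37 AAA_14 cells and 2 in 2 AAA_7 cells (3.69, interval 2.13 to 7.06). The AAA_14 cell with most held 42 and was the cell of 31157 UMIs with 140 Ccr7 and 0 Xcr1 UMIs. Without it the ratio was 3.38. In cDC2 Dnase1l3 had 15 UMIs in AAA_14 and 0 in AAA_7, and in other kept cells the ratio was -0.16. Cd8a, borne by the cDC1 of lymphoid organs in mice, had 153 UMIs in 26 cells and 3 in 3 cells (2.67, interval 1.32 to 5.18). Thinned to 2000 UMIs, Cd8a was found in 11.7% of 111 and 4.0% of 25 cells, beside 4.2% and 4.7% of other kept cells. The splicing factor Srsf5 was higher on 704 and 26 UMIs (1.95, interval 1.41 to 2.60), with 1.48 in cDC2. Rgs1, which damps chemokine signalling, was higher by 1.57. Gtpbp2, Pdhb, Ash1l and the noncoding RNAs Kcnq1ot1 and AY036118 were higher too. Siglech (1.94) and Ctsl (1.82) had ratios of -0.60 and -0.76 without the cells high in plasmacytoid genes, and Ly6d (1.82) had 7 UMIs in AAA_14 and 0 in AAA_7 without them.

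Of 22 genes of the immediate early and heat shock list 1 was at least 2-fold higher and 4 lower (14.1% and 5.54% over all genes), with a median of -0.11. The lower ones included 2 paralogous heat shock genes. Hspa1b had 754.5 CPM in AAA_14 and 2560 CPM in AAA_7 (-1.76, interval -1.89 to -1.64), and Hspa1a had 670.1 and 1764 CPM (-1.40, interval -1.54 to -1.25). Both were lower in cDC2 (-1.74 and -1.56) and in all other kept cells (-1.10 and -0.86) of AAA_14. Of 24 genes of oxidative phosphorylation none reached 2-fold, with a median of -0.30, beside 0.11 over all genes. The small ATP synthase subunits Atp5md (-1.16) and Atp5mpl (-1.13), outside that list, were lower. They were so in cDC2 (-1.14 and -1.03) and other cells (-1.10 and -1.13). Mitochondrially encoded UMIs went the other way, with a median of 4.19% per cell in AAA_14 cDC1 and 0.849% in AAA_7 cDC1, and their part in these differences was not tested. Mt1, a metallothionein, had a ratio of -1.16, which was -0.80 without the cell with most of its UMIs and 0.17 with cells thinned to 1000 UMIs. Further lower genes were Tob2 (-1.66), Csrnp1 (-1.53), Olfm1 (-1.05), Bloc1s1 (-1.36), Lsr (-1.32) and the pseudogene Gm11808 (-1.84), whose reads may be shared with its parent gene.

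Among the remaining lists, 5 of 22 genes of glycolysis and hypoxia were at least 2-fold lower and none higher (5.54% and 14.1% over all genes), with a median of -0.08. They included the hexokinase Hk2 (45 UMIs in AAA_14 and 22 in AAA_7, -1.77, interval -2.52 to -0.94) and the glucose transporter Slc2a1 (18 and 11 UMIs, -2.10, interval -3.23 to -0.84). Klf2, a factor that holds back inflammatory gene expression, was higher on 609 and 40 UMIs (1.13, interval 0.68 to 1.64), with 1.03 in cDC2. Cd40, the receptor through which T cells license dendritic cells, was higher on 117 and 8 UMIs (1.01, interval 0.06 to 2.33). Of 20 pattern recognition genes 1 was at least 2-fold higher and 4 lower, beside the same shares, with Tlr2, a sensor of bacterial lipoproteins, at 26 and 20 UMIs (-2.41, interval -3.30 to -1.49).

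**Figure D5:**
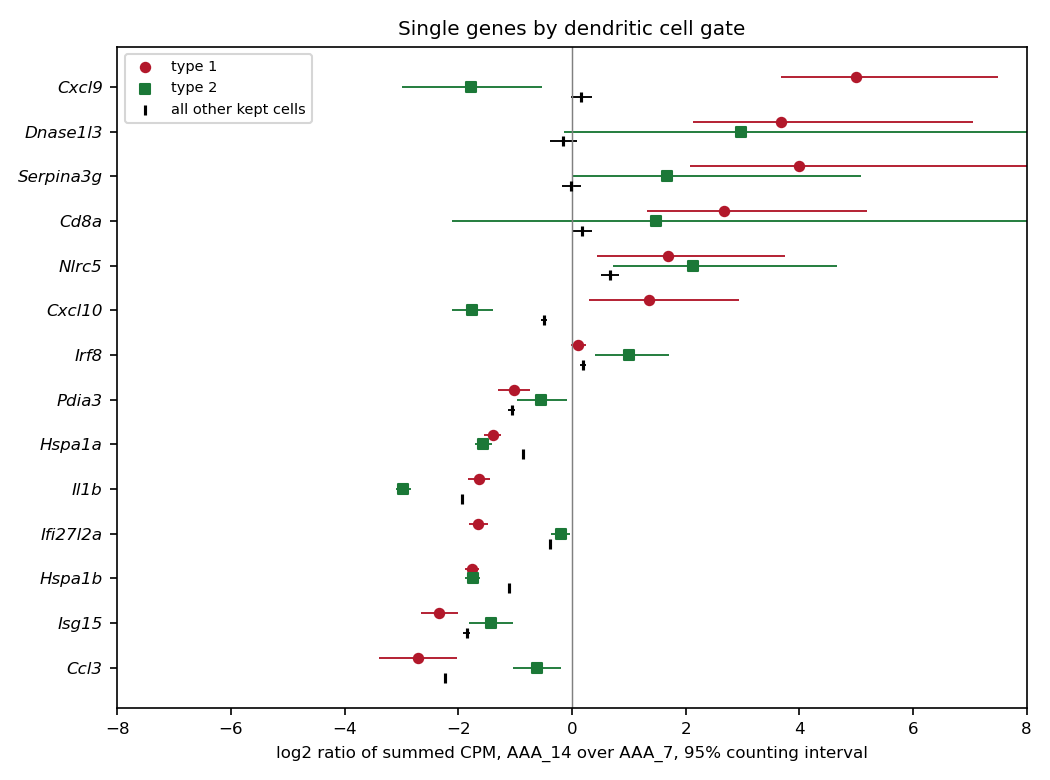
Log2 ratio of AAA_14 over AAA_7 for 14 genes in cDC1 (circles), cDC2 (squares) and all other kept cells (bars), with 95% counting intervals (lines, drawn to -8 and 8 at most). Cxcl9 lies at 5.00 in cDC1 and at -1.77 in cDC2, while Hspa1a, Hspa1b and Isg15 are below 0 in each group.

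The 14 macrophage markers summed to 614.1 CPM in AAA_14 and 580.3 CPM in AAA_7 cDC1, against 9853 and 13817 CPM in other kept cells, and 115.9 CPM in gated Sham cells. The 10 T cell markers summed to 39.0 CPM in AAA_14 and 6.71 CPM in AAA_7 cDC1, and the 8 NK cell markers to 8.29 and 0 CPM. The 12 neutrophil markers reached 1210 CPM in AAA_14 against 97.3 CPM in AAA_7, but 1 AAA_14 cell held 85.6% of them, and 6 of the 7 with at least 10 UMIs reached 2-fold higher in AAA_14. The 18 cDC2 markers, at 1154 CPM in AAA_14 and 1288 CPM in AAA_7, were below the 2689 and 3430 CPM of other kept cells. The 9 monocyte markers summed to 2500 CPM in AAA_14 cDC1, 2942 CPM in AAA_7 cDC1 and 7764 CPM in gated Sham cells, against 2872, 2810 and 1230 CPM in other kept cells. With the cells high in plasmacytoid genes left out they summed to 1826 CPM in AAA_14 and 2752 CPM in AAA_7 cDC1. Plac8 held 1335 CPM of this in AAA_14 and 1751 CPM in AAA_7, while Fn1, Chil3 and Vcan had at most 3.35 CPM in cDC1 of either library. The part of these RNAs in the results was not tested. Sirpa had a UMI in 22.5% of AAA_14 and 18.5% of AAA_7 gated cells, and in 7.7% and 8.3% without the cells high in plasmacytoid genes.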

How the data were processed

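Per the labels' protocols, aortas were digested with enzymes and CD45-positive cells were captured on beads and run as 10x Genomics libraries, 1 pool per group. The deposited files hold unnormalised UMI counts for each gene in each barcode. Cell Ranger 6.1.2 wrote them, per the file headers, and Seurat and mm10 stand in the submitters' processing notes. No barcode had under 500 UMIs. The libraries held 10108 barcodes in AAA_14, 3496 in AAA_7 and 3785 in Sham, with 67243700, 13341534 and 13677839 UMIs. Gene identifiers were matched to GENCODE vM21, of which 32158 of 32285 matched. Coordinates are GRCm38, 1-based, and promoter sequences are from RefSeq.

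The members of the gate and all gene lists were chosen with earlier results of these data known. Counts were summed over the cells of a gate and library and given as CPM. AAA_14 over AAA_7 is a log2 ratio of CPM with 0.5 counts added, with an exact conditional binomial 95% interval, and genes count as called at 2-fold. For a gene with 0 UMIs in a library, the fold was set against 3 counts there. Intervals and floors cover counting error only. cDC1 sums were set against cDC2 and mature sums of AAA_14 and AAA_7 with edgeR 4.0.16 (TMM, filterByExpr, quasi-likelihood test, library as a term, R 4.3.3). Each comparison used the genes outside both gates, without mitochondrial genes, and p-values were adjusted over all genes tested (Benjamini-Hochberg). Cells of a library are not replicates of its condition, and cDC1 and cDC2 sums of 1 library share a pool. The test was checked on simulated counts. Doublets were not removed beyond the gate, and a Scrublet removal at 0.8% per 1000 cells (scanpy 1.11.5) was an alternative. Other alternatives changed the cell limits, the gate, the depth, the counts added, the scaling and the test (DESeq2 1.42.0).

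Genes were named from the lists. Others were named by rank. Between the libraries these were the 12 in each direction with the interval bound nearest 0 farthest from it. They had at least 2-fold, 20 UMIs, 50 CPM and 5 cells in the higher library, under 25% of UMIs from 1 cell, and at least 0.5 of the CPM of other kept cells. Genes of mitochondria, ribosomes, haemoglobin, the Y chromosome and receptor variable segments, and Xist, stayed out. In each type comparison they were the 12 in each direction with the smallest p and the same direction in both libraries, and against other kept cells the 20 with the highest mean log2 ratio at 50 CPM or more. The limit on plasmacytoid genes and the alternatives without those cells, or without the cell with most UMIs of a gene, were added after the data were seen.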

Additional observations from a re-analysis of the deposited data

Results flagged for a closer look

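Of the list genes, 4 had ratios of AAA_14 over AAA_7 that were at least 2-fold in cDC1 and at least 2-fold the other way in cDC2. Cxcl9 had a log2 ratio of 5.00 in cDC1 and -1.77 in cDC2. Gbp2 had 67 UMIs in AAA_14 and 0 in AAA_7 in cDC1, which gives a log2 ratio of at least 1.70 against a floor of 3 counts (4.29 with 0.5 counts added, not a bound), and -1.21 in cDC2. Ccr7, a receptor that guides cells to lymph nodes, had 2.06 in cDC1 and -1.20 in cDC2, and Cxcl10 had 1.36 and -1.75. Without the cell with most of the gene's UMIs the cDC1 ratio was 0.06 for Ccr7 and 0.66 for Cxcl10, both under 2-fold, and with at least 2 Xcr1 or Clec9a UMIs required Ccr7 was at -0.61. The difference between the gates was not tested, since each library is 1 pool. Another 30 list genes had ratios of at least 2-fold in the same direction in both gates. Cells that meet the cDC1 rule were found in Sham with a summed level of 12 plasmacytoid dendritic cell markers of 20570 CPM, against 1013 CPM in other kept Sham cells, and these 5 cells enter no comparison of genes.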

How the results depend on the processing

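Between AAA_14 and AAA_7, 1025 of 1180 values of 78 genes under the alternatives lay within the counting interval of the reported ratio, 143 lay outside it and 12 changed sign. Of 338 list medians, 314 lay within the interval of the reported median, 17 outside it and 7 changed sign. The medians of the type I interferon (-0.50 to 0.0035), MHC class I (0.17 to 0.34) and MHC class II (0.0030 to 0.28) lists stayed within theirs. With 5 counts added, 51 genes were higher and 1051 lower, and the medians were -0.022 for identity, -0.25 for cell cycle, -0.12 for interferon gamma and -0.32 for neutrophil genes, with Iigp1 at -0.017. Adding 5 counts to unequal totals lowers the ratios of sparse genes by construction. For the other changes below the cause was not tested. As a mean over cells of log2 levels, Cxcl10 was -0.0093 and the interferon gamma median 0.051. Cells thinned to 1000 UMIs gave 17 higher and 36 lower genes, medians of -0.13 for identity and -0.089 for proteasome and lysosome genes, Mt1 at 0.17, and shares of 1.02% in AAA_14, 0.437% in AAA_7 and 0.0803% in Sham.

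At a mitochondrial limit of 5% the medians were -1.87 for plasmacytoid and -0.0013 for proteasome and lysosome genes, Siglech was at -4.38, Ctsl at -2.55 and Ly6d at -3.77, and the share was 5.05% in AAA_14 and 0% in Sham. At 20% the share in AAA_14 was 1.55%. With at least 2 Xcr1 or Clec9a UMIs, Ccr7 was at -0.61, Il1b at 0.033, Tnfsf9 at 1.33 and the share in AAA_14 was 1.63%. At 200 MHC class II UMIs per 10000 the share was 1.72% in AAA_14 and 0% in Sham. Without cells holding markers of other cell types, 609 genes were higher, Ctsl was at -0.015, and the share was 1.17% in AAA_14 and 0.0810% in Sham. Without the cells high in plasmacytoid genes Ctsl was at -0.76 and the share was 1.72% in AAA_14 and 0% in Sham, and without these and the cycling cells the values were -1.05, 1.25% and 0%. Without cycling cells alone the cell cycle median was 0.70, the share in AAA_14 was 1.59%, and against cDC2 150 genes were higher and 211 lower. These counts were 217 and 303 when the cells high in plasmacytoid genes were left out as well. Without the deepest cell of each library the cell cycle median was 0.72.

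Against cDC2, DESeq2 called 91 genes higher and 149 lower, no filter 395 and 556, and no library term 111 and 118. Against mature cells DESeq2 called 116 and 245. Of 818 values of 75 genes against cDC2, 739 kept their side of the threshold, 70 lost it, most often without the library term and with DESeq2, and 9 gained it. Irf4 gained it in 6 settings and Flt3 lost it in 5. Against mature cells Batf3, which did not pass, was at 0.11 with a mitochondrial limit of 5%, 0.038 with at least 2 Xcr1 or Clec9a UMIs and 0.0027 without the cells high in plasmacytoid genes. Leaving out a library left no residual degrees of freedom and gave no value, and the mature comparison without cycling cells was not run, since AAA_14 alone had at least 10 cells in each gate. Between AAA_14 and AAA_7 no paired analysis was possible because each group has 1 library. In the type comparisons the library term paired the sums of each library.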
